A study of Homo sapiens with 4 samples.

Results

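The collagen genes are the 44 of 20033 protein-coding genes in GENCODE release 44 (hg38) whose symbol is COL, a number, A, and a number. Each encodes an alpha chain of 1 of the collagen types. The data were 4 lists of CUT&RUN peaks, which mark where an antibody-tethered nuclease released DNA, from HSSY II cells, a human synovial sarcoma (SS) line. SS18-SSX, the fusion oncoprotein of this tumor, and WDR5, a chromatin scaffold protein, were each profiled after 4 days with DMSO or with 2.5 μM MS67, a small-molecule degrader of WDR5. All 4 samples held NIH-3T3 mouse cells as a spike-in, and there was 1 library per target and treatment, so that no difference below has a replicate check and intervals cover counting error only. A single cell line was used, and no marker of cell type can be read from a peak list, which holds no transcript levels.

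Collagens are the trimeric structural proteins of the extracellular matrix. The fibrillar types form the fibrils of bone, skin, tendon, and cartilage, the FACITs (fibril-associated collagens with interrupted triple helices) sit on the fibrils, type IV forms the network of basement membranes, and other types form short-chain or beaded networks or span the cell membrane. SS is a soft-tissue tumor of mesenchymal appearance. SS18-SSX acts within SWI/SNF (BAF) chromatin remodeling complexes, and WDR5 is a core subunit of the MLL/SET1 histone methyltransferases, which act largely at promoters.

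Depth was read from each peak. The fold and the p-value that MACS2, the authors' peak caller, gave for a summit together fix the whole number of fragments stacked there and the local background, and the lowest background in a list is the coverage expected across the whole genome. This genome-wide coverage was 0.541 fragments per base for SS18-SSX with DMSO, 0.737 for SS18-SSX with MS67, 0.368 for WDR5 with DMSO, and 0.168 for WDR5 with MS67. By this estimate, the MS67 library was the deeper of the SS18-SSX pair (1.36 times) and the shallower of the WDR5 pair (0.458 times). Where no listed peak lies at the genome-wide level, the estimate is too high, and this was not checked. The lists held 15141, 1175, 35605, and 14123 peaks in the same order.

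SS18-SSX had a peak in the body or the 10-kb flanks of 22 of the 44 collagen genes with DMSO, and WDR5 of 36. The share for SS18-SSX was 50% (exact 95% interval, 34.6 to 65.4) against 31.8% of all protein-coding genes, and that for WDR5 was 81.8% (67.3 to 91.8) against 75.0%. Collagen genes are long (median, 145 kb against 27.5 kb), and the shares were also taken by length. Among genes of 100 kb or more, SS18-SSX had a peak in 14 of 26 collagen genes (53.8%, 33.4 to 73.4) and in 42.4% of all such genes. Among shorter genes, it had a peak in 8 of 18 (44.4%, 21.5 to 69.2) against 29.5%. For WDR5 the counts were 21 of 26 long collagen genes (80.8%) against 86.6% and 15 of 18 shorter ones (83.3%) against 72.4%. Within each length class, the background share lay inside the interval of the collagen share for SS18-SSX. Both targets had a peak at 21 collagen genes, SS18-SSX alone at COL22A1, and WDR5 alone at 15. No list held a peak at the other 7, which are COL3A1, COL5A2, COL4A5, COL10A1, COL6A3, COL6A5, and COL6A6. The shares of all protein-coding genes in these overlap states were not computed, so the 4 counts have no background.

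With MS67, SS18-SSX had a peak at 3 collagen genes (6.82%, 1.43 to 18.7, against 3.63% of all genes), COL2A1, COL14A1, and COL20A1. WDR5 with MS67 had a peak at 24 (54.5%, 38.8 to 69.6, against 54.1%). Merged into 39 windows of 7.49 Mb, the collagen genes held 79 SS18-SSX and 131 WDR5 peaks with DMSO, and 8 and 46 with MS67. The density was 10.5 SS18-SSX peaks per Mb with DMSO against 7.18 over the windows of all protein-coding genes, and 17.5 WDR5 peaks against 18.5. With MS67 it was 1.07 against 0.512 for SS18-SSX and 6.14 against 7.78 for WDR5. The higher SS18-SSX density with MS67 rested on COL20A1. Without that gene, 3 of the 8 peaks remained and the density was 0.404 per Mb, and with DMSO it was 8.21 per Mb.

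**Figure D1:**
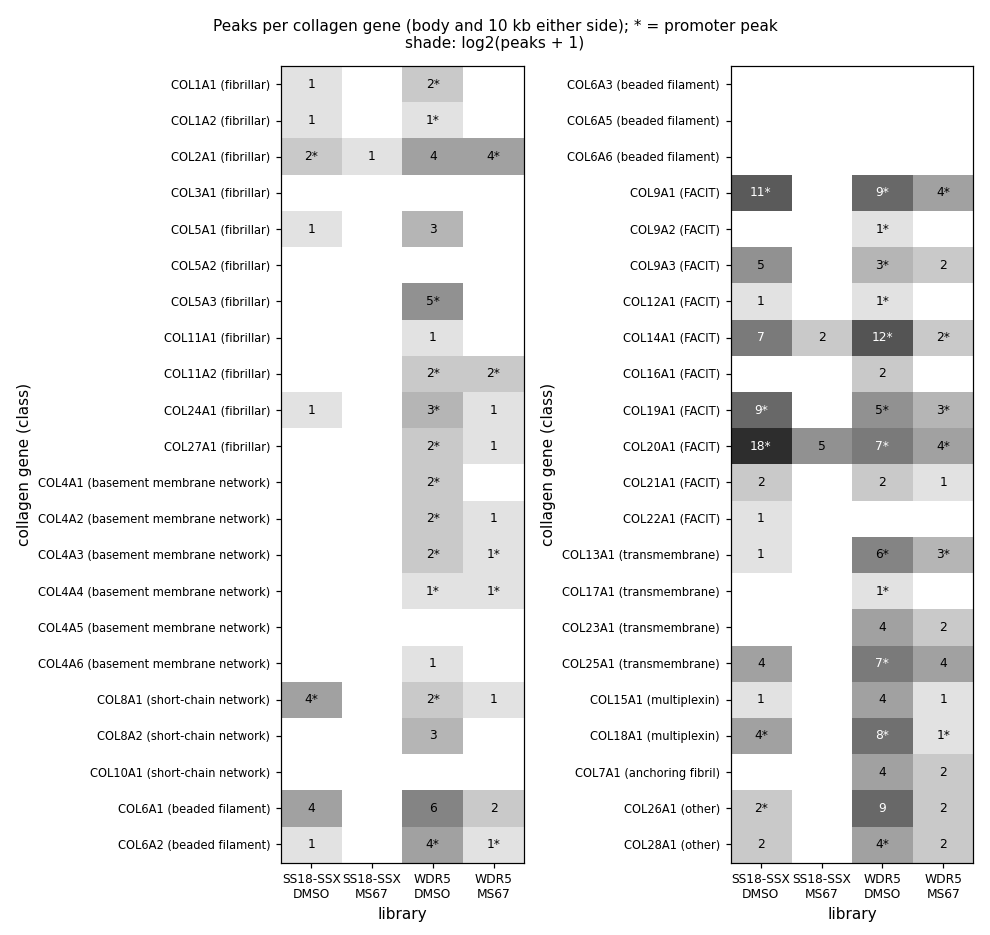
Number of peaks in each collagen gene and its 10-kb flanks in the 4 libraries (columns), with shading on a log2(peaks + 1) scale, blank cells for 0, and an asterisk where a peak is centred in a promoter. COL20A1 holds 18 SS18-SSX peaks with DMSO, the COL4 genes hold none, and the SS18-SSX MS67 column is blank except at COL2A1, COL14A1, and COL20A1. Peaks in windows shared by neighboring genes, such as COL9A1 and COL19A1, count for both.

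At promoters, taken as 1000 bp upstream to 100 bp downstream of any annotated start site, SS18-SSX had a peak centre at 7 of 44 collagen genes with DMSO (15.9%, 6.64 to 30.1, against 13.4%) and at 0 with MS67 (an upper bound of 8.04%, against 0.724%). WDR5 had one at 24 with DMSO (54.5%, 38.8 to 69.6, against 43.0%) and at 11 with MS67 (25.0%, 13.2 to 40.3, against 27.7%). With the window set to 1 kb on either side of a start site, the counts were 14 for SS18-SSX with DMSO (31.8%, 18.6 to 47.6, against 19.0%), 2 with MS67 (4.55%, against 1.25%), 30 for WDR5 with DMSO (68.2%, 52.4 to 81.4, against 56.1%), and 12 with MS67 (27.3%, 15.0 to 42.8, against 39.1%). All 4 background shares in the first set lay inside the collagen intervals. The wider window took in SS18-SSX peaks centred more than 100 bp inside the gene. Within 2 kb of the canonical start site, 17 of 20 collagen SS18-SSX peaks lay on the downstream side (85.0%), against 55.7% over all protein-coding genes. Several genes gave more than 1 of these peaks, and no interval was computed. Among them, the COL19A1 peaks at +218 and +1121 bp lie in a start region shared with LMBRD1. For WDR5 it was 33 of 49 pairs of a peak and a start site (67.3%) against 58.0%.

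The counts, each out of the 44 collagen genes, depended on how strong a peak had to be. Percentages in parentheses here are shares of all protein-coding genes and not of collagen genes. Counts that stayed within 1.5 times the reported value are left out of this paragraph. With a stricter standard (−log10 q above 3, with a fold above 6 for WDR5 and above 3 for SS18-SSX), WDR5 had a peak at 11 collagen genes with DMSO (30.5% of all genes) and at 6 with MS67 (16.8%), and SS18-SSX with MS67 had one at 0 (1.73%). WDR5 promoter peaks were then found at 3 collagen genes with DMSO (11.7% of all genes) and at 1 with MS67 (7.39%). With −log10 q above 5, SS18-SSX had a peak at 10 collagen genes with DMSO (9.81%) and at 1 with MS67 (0.819%), and WDR5 with MS67 at 7 (15.3%). Promoter peaks above that value were found at 4 collagen genes for SS18-SSX with DMSO (3.02%), at 13 for WDR5 with DMSO (23.6%), and at 2 for WDR5 with MS67 (6.74%). With canonical start sites alone, the promoter count was 3 for SS18-SSX with DMSO (8.84%) and 6 for WDR5 with MS67 (18.2%).

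**Figure D2:**
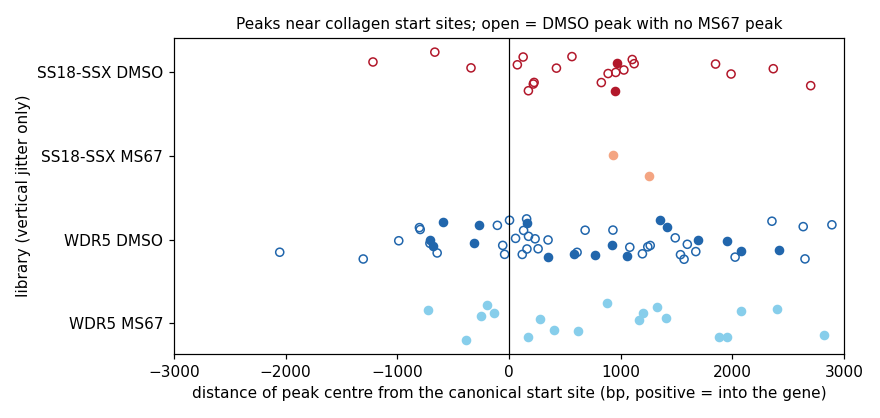
Centres of collagen peaks within 3000 bp of the canonical start site, by library, with open circles for DMSO peaks without a counterpart in the MS67 list. SS18-SSX peaks with DMSO sit mostly on the gene side of the start, where 17 of the 20 within 2 kb lie. WDR5 with DMSO does so to a lesser extent, with 33 of 49 pairs of a peak and a start site on that side.

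Of the 7 genes with an SS18-SSX promoter peak, COL8A1, COL9A1, COL18A1, COL19A1, and COL20A1 also had a WDR5 promoter peak. COL2A1 and COL26A1 had WDR5 peaks centred further inside the gene. How often the 2 promoter calls coincide over all protein-coding genes was not computed. At COL20A1 the peaks centred in a promoter lay at different start sites for the 2 targets. The WDR5 promoter peak there nevertheless lay within an SS18-SSX peak centred 135 bp inside the same start site. Stretches of the peaks that both targets shared at a promoter, and of 3 peaks that were present with MS67, are given as genome sequence (hg38, read in the direction of the gene), taken as the up to 120 bases nearest the summit that no annotated exon covers. The COL9A1 stretch is chr6:70281086-70281205 (minus strand) under the tallest collagen promoter summit of SS18-SSX outside COL20A1. The COL19A1 stretch is chr6:69866694-69866813 (plus strand) in the promoter that the gene shares with LMBRD1, and the COL8A1 stretch is chr3:99638665-99638756 (plus strand), at the start of intron 1. Those of COL2A1 are chr12:48004179-48004236 (minus strand), the first bases of intron 1 and 187 bp from the summit, and chr12:48003378-48003497 (minus strand), the intron 1 peak of SS18-SSX that was found with both treatments. The COL20A1 stretch is chr20:63314292-63314411 (plus strand) in intron 19 under the tallest SS18-SSX summit with MS67, and the last is chr2:227164454-227164537 (minus strand), between COL4A3 and COL4A4, where WDR5 was found with both treatments. No stretch of 50 bases free of exons was found in the COL18A1 peak.
COL9A1 promoter, SS18-SSX with DMSO: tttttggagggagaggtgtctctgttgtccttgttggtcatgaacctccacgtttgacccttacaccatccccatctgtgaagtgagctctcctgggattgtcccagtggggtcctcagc
COL19A1 promoter, SS18-SSX with DMSO: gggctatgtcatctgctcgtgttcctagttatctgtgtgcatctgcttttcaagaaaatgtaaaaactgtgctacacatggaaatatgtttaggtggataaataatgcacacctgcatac
COL8A1 promoter, SS18-SSX with DMSO: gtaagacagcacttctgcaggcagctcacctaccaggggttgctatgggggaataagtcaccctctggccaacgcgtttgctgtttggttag
COL2A1 promoter, SS18-SSX with DMSO: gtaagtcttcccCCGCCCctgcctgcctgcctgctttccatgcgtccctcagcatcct
COL2A1 intron 1, SS18-SSX with MS67: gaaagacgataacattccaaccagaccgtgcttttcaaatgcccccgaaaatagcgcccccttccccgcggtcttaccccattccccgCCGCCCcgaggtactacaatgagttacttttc
COL20A1 intron 19, SS18-SSX with MS67: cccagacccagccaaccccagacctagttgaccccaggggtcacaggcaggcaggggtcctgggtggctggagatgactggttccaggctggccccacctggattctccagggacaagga
COL4A3 and COL4A4 promoter, WDR5 with MS67: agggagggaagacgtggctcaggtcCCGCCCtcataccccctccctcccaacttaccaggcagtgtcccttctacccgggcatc
Capitals mark GGGCGG, the GC box of SP and KLF factors, read here as CCGCCC, its reverse complement, in each case. The other motifs searched, on both strands, were CCAAT (NF-Y), CACGTG (E-box), and AACAAT (SOX factors), and none occurred in these stretches. In the 120 bases around the 79 collagen SS18-SSX summits with DMSO, GGGCGG was found in 8.86% (13.2% of all SS18-SSX summits), CCAAT in 5.06% (11.4%), CACGTG in 1.27% (2.66%), and AACAAT in 0% (1.77%). The median GC content of these windows was 60.0%, against 60.8% over all SS18-SSX summits.

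Among the 11 fibrillar collagens, which form the fibrils, COL2A1, the cartilage type II chain, had the most peaks across the 4 lists and was the only one with an SS18-SSX promoter peak. SS18-SSX with DMSO had 2 peaks there. The promoter peak (chr12:48004179-48004519, centre 127 bp inside the canonical start in exon 1) had 18 fragments at its summit (Poisson 95% interval, 10.7 to 28.4) and −log10 q of 5.05. The intron 1 peak (chr12:48003279-48003775, 949 bp inside) had 21 fragments (13.0 to 32.1). With MS67 the promoter peak was not listed and the intron 1 peak was, with 15 fragments. Scaled to the coverage of each library, the intron 1 summit with MS67 was 0.524 of that with DMSO (0.251 to 1.07), an interval that includes 1. WDR5 with DMSO had 3 peaks within the first 2081 bp of the gene, with 35 fragments at the tallest, and 1 at the promoter of the neighboring TMEM106C. With MS67, WDR5 had 4 peaks, among them 1 of 13 fragments at the COL2A1 promoter, where the DMSO peak was centred 353 bp inside the gene.

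COL1A1 and COL1A2, the chains of type I collagen of bone and tendon, each had 1 SS18-SSX peak just inside the start and no peak of either target with MS67. At COL1A1 the SS18-SSX peak (chr17:50201260-50201654, exon 1, centre at +174 bp) had 13 fragments (6.92 to 22.2) and −log10 q of 4.28, and the WDR5 peak of 23 fragments (14.6 to 34.5) was centred in intron 1 at +1489 bp, 49 bp from an alternative start site. At COL1A2 the SS18-SSX peak (chr7:94395374-94395544, intron 1, +564 bp) had 7 fragments (2.81 to 14.4), and the WDR5 peak of 8 fragments lay at −56 bp. The type I genes thus had low SS18-SSX summits, under the median of 16.0 fragments of the SS18-SSX list. COL24A1, a minor fibrillar chain, had 1 SS18-SSX peak of 9 fragments in intron 1 (+956 bp), which overlapped 1 of its 3 WDR5 peaks. Its WDR5 promoter peak of 15 fragments was absent with MS67, and another in intron 1 was listed with both treatments (10 and 7 fragments). COL5A1, a chain of the type V collagen that nucleates fibrils, had 1 SS18-SSX peak of 8 fragments in its downstream flank and 3 WDR5 peaks in intron 1.

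The other fibrillar genes had WDR5 peaks only. COL11A2, a chain of the cartilage type XI collagen, had a WDR5 promoter peak with DMSO (chr6:33192952-33193333, 16 fragments) that was also listed with MS67 (9 fragments; ratio, 1.23; 0.478 to 2.95). COL11A1 had 1 WDR5 peak of 17 fragments in intron 1 with DMSO. COL27A1 had a WDR5 promoter peak of 26 fragments that was absent with MS67 and an intron 1 peak of 16 fragments that was listed again, with 12. COL5A3 had 5 WDR5 peaks of 5 to 16 fragments with DMSO and none with MS67. COL3A1 and COL5A2 lie next to each other on chromosome 2 and had no peak. In all, fibrillar genes held 6 SS18-SSX peaks with DMSO, of which 1 was kept with MS67, and 23 WDR5 peaks, of which 7 were kept. A peak is called kept here when an MS67 peak of the same target overlaps it by at least 1 bp, and lost otherwise.

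The 6 type IV genes, which encode the basement membrane network and are arranged head to head in pairs, had no SS18-SSX peak in either list over 1.28 Mb. WDR5 was found at 2 of the 3 shared start regions. Between COL4A1 and COL4A2 the WDR5 peak with DMSO (chr13:110307067-110307237) had 15 fragments and was absent with MS67, as was another of 15 fragments at −987 bp from the COL4A1 start. Between COL4A3 and COL4A4 the peak (chr2:227164317-227164727) had 8 fragments with DMSO (3.45 to 15.8) and 4 with MS67 (1.09 to 10.2), which at the coverage of each library was a ratio of 1.09 (0.240 to 4.07). COL4A2 had an additional WDR5 peak of 4 fragments in intron 3 with MS67 only, COL4A3 had a DMSO peak at the promoter of the neighboring MFF, and COL4A6 had 1 of 5 fragments in intron 13.

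Of the short-chain collagens, COL8A1, a chain of the network under endothelia, had 4 SS18-SSX peaks with DMSO. The promoter peak (chr3:99638581-99638756) was the lowest, with 7 fragments (2.81 to 14.4) and −log10 q of 1.71, and overlapped a WDR5 peak of 14 fragments. Neither was listed with MS67. The highest by q lay in intron 2, 106454 bp from the start (chr3:99744934-99745161), with 13 fragments (6.92 to 22.2) and −log10 q of 7.27. WDR5 had a peak at the same place with DMSO (17 fragments) and with MS67 (10 fragments; ratio, 1.28; 0.525 to 2.97), whereas SS18-SSX had none with MS67. The position was thus shared by 3 of the 4 lists. COL8A2 had WDR5 peaks only, 1 of them at the promoter of the neighboring ADPRS, and none with MS67.

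Of the beaded filament genes, COL6A1 and COL6A2, chains of the type VI collagen around muscle fibers and cells, had peaks and COL6A3, COL6A5, and COL6A6 had none. COL6A1 had 4 SS18-SSX peaks, all in its flanks. The 3 upstream peaks, at −4237, −7812, and −9570 bp, had 22 to 24 fragments over a local background 12.1 to 14.6 times the genome-wide coverage, and the downstream peak had 9 over 2.52 times. WDR5 had 6 peaks at COL6A1, and the downstream one, at the same place as that of SS18-SSX, had 15 fragments with DMSO and 11 with MS67 (ratio, 1.60; 0.665 to 3.73). COL6A2 had an SS18-SSX peak of 11 fragments in intron 1 (+888 bp) and WDR5 promoter peaks of 15 and 19 fragments, of which the first was listed with MS67 too (10 fragments). All 5 SS18-SSX peaks of the class were lost.

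The 10 FACIT genes held 50 of the 79 collagen SS18-SSX peaks with DMSO, or 27.0 per Mb, and 7 of the 8 with MS67. They held 41 of the 131 WDR5 peaks. COL20A1 alone had 18 SS18-SSX peaks (22.8% of the collagen total), COL9A1 and the adjacent COL19A1 had 16 (20.3%), and COL14A1 had 7 (8.86%).

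COL9A1 encodes a chain of the type IX collagen on cartilage fibrils and is known to be transcribed from an internal promoter as well, which gives a short form. All of its promoter peaks lay at internal start sites, and none at the canonical start. The tallest SS18-SSX peak (chr6:70280477-70281466, intron 9, 22112 bp inside the canonical start and at −495 bp from an annotated one) had 55 fragments (41.4 to 71.6) and −log10 q of 16.9. It overlapped WDR5 peaks of 43 (31.1 to 57.9) and 29 fragments. A further SS18-SSX peak in intron 6, 115 bp inside another annotated start, had 41 fragments (29.4 to 55.6) and overlapped a WDR5 peak of 34. Of these, only the WDR5 peak near intron 6 was listed with MS67, with 18 fragments (ratio, 1.15; 0.614 to 2.10), and no SS18-SSX peak of COL9A1 was. The local background at these 2 SS18-SSX peaks was 19.0 and 18.7 times the genome-wide coverage, against a median of 5.72 over the list.

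COL19A1, a rare FACIT of muscle and brain, shares its start region with LMBRD1, which encodes a lysosomal membrane protein and is read in the other direction. WDR5 with DMSO had a peak of 1436 bp there (chr6:69866419-69867854) with 68 fragments (52.8 to 86.2) and −log10 q of 43.9. That was the highest of the 131 collagen WDR5 peaks by either measure. With MS67, WDR5 had 2 peaks inside it, of 9 and 16 fragments, and the taller gave a ratio of 0.513 (0.278 to 0.895), the only kept collagen WDR5 peak whose interval lay wholly below 1. SS18-SSX with DMSO had peaks of 17 (9.90 to 27.2) and 22 fragments (13.8 to 33.3) within the same stretch, and none with MS67. Because the start sites are shared, these peaks cannot be assigned to COL19A1 or LMBRD1. The other SS18-SSX peaks of COL19A1 lay 307773 bp or more from its start, some beyond its end toward COL9A1, and had up to 38 fragments.

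COL20A1, a minor FACIT, stood apart. Its 18 SS18-SSX peaks covered 11803 bp and had 29 to 106 fragments, but over a local background 16.3 to 78.8 times the genome-wide coverage (median 48.2), so that their folds were only 2.04 to 4.16. The peak with the most fragments (chr20:63306545-63308997, intron 6) had 106 (86.8 to 128) at a fold of 2.89. The SS18-SSX promoter peaks of COL20A1, of 89 and 68 fragments, lay at internal start sites, in introns 21 and 23. The WDR5 promoter peak of 23 fragments lay at −161 bp from a start site near exon 2. It fell within an SS18-SSX peak of 47 fragments centred 135 bp inside that start site. In WDR5 with DMSO the background at the 7 COL20A1 peaks was 7.80 to 16.6 times coverage. With MS67, 5 SS18-SSX peaks were listed within the gene, of 64 to 87 fragments over a background 40.7 to 53.1 times coverage. These were 5 of the 8 collagen SS18-SSX peaks with MS67, and they overlapped 5 of the 18 DMSO peaks. The scaled ratios of those pairs ran from 0.526 to 0.924, and 3 of the 5 intervals lay below 1. The summit fragments in them include the raised local background, which was not subtracted. The DMSO peaks of 54 and 74 fragments were set against the same MS67 summit of 68, so these ratios are not all independent. The part of the raised background in these calls was not tested.

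**Figure D3:**
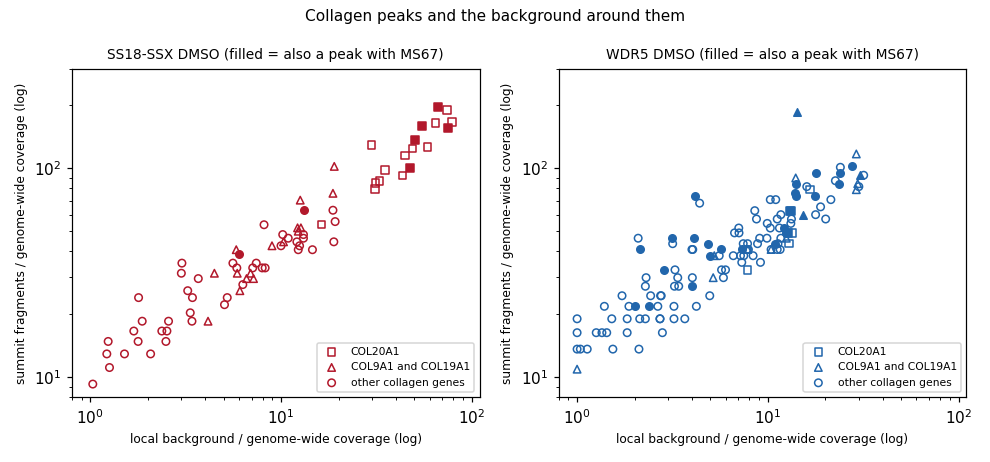
Summit fragments against local background, each divided by the genome-wide coverage of the library, for the collagen peaks of SS18-SSX (left) and WDR5 (right) with DMSO on log axes, filled where a peak of the same target was found with MS67. The COL20A1 squares take the right end of the SS18-SSX plot, at 16.3 to 78.8 times coverage, and hold 5 of the 7 filled points.

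COL14A1, which encodes a FACIT that regulates fibril diameter, had 7 SS18-SSX and 12 WDR5 peaks with DMSO. The tallest SS18-SSX peak, in intron 1 at +966 bp, had 34 fragments (23.5 to 47.5) and −log10 q of 8.63, and it overlapped a WDR5 peak of 35 (24.4 to 48.7). Both were also listed with MS67, with 37 fragments for SS18-SSX (ratio, 0.798; 0.487 to 1.31) and 18 for WDR5 (ratio, 1.12; 0.598 to 2.04). This intron 1 position was thus held in all 4 lists. A second SS18-SSX peak with MS67, of 12 fragments in intron 38, overlapped no DMSO peak, and it was the only such collagen peak of SS18-SSX. Of the WDR5 promoter peaks with DMSO, the one at −268 bp was kept (31 and 21 fragments; ratio, 1.48; 0.807 to 2.66), and the other, of 7 fragments at an internal start site in exon 45, was lost.

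COL9A3, another type IX chain, had 5 SS18-SSX peaks of 24 to 34 fragments, 1 at the promoter of the neighboring OGFR and 4 in introns 3 to 11, and all were lost. Their local background was 10.2 to 19.2 times the genome-wide coverage, and their folds were 2.23 to 4.14. The WDR5 promoter peak of COL9A3, of 24 fragments, was lost, and 2 WDR5 peaks with MS67 lay elsewhere. COL12A1, which encodes a FACIT of tendon and ligament, had an SS18-SSX peak of 19 fragments at +1029 bp and a WDR5 promoter peak of 20 fragments, and neither was listed with MS67. COL21A1 had SS18-SSX peaks of 7 and 10 fragments, the latter at a WDR5 peak of 9, and WDR5 with MS67 had 1 peak of 11 fragments at another position. COL22A1, a chain found at tissue junctions, had 1 SS18-SSX peak of 5 fragments (1.62 to 11.7) with −log10 q of 1.68 and no WDR5 peak. COL9A2 had 1 WDR5 promoter peak of 10 fragments, and COL16A1 had 2 WDR5 peaks, none of them listed with MS67.

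**Figure D4:**
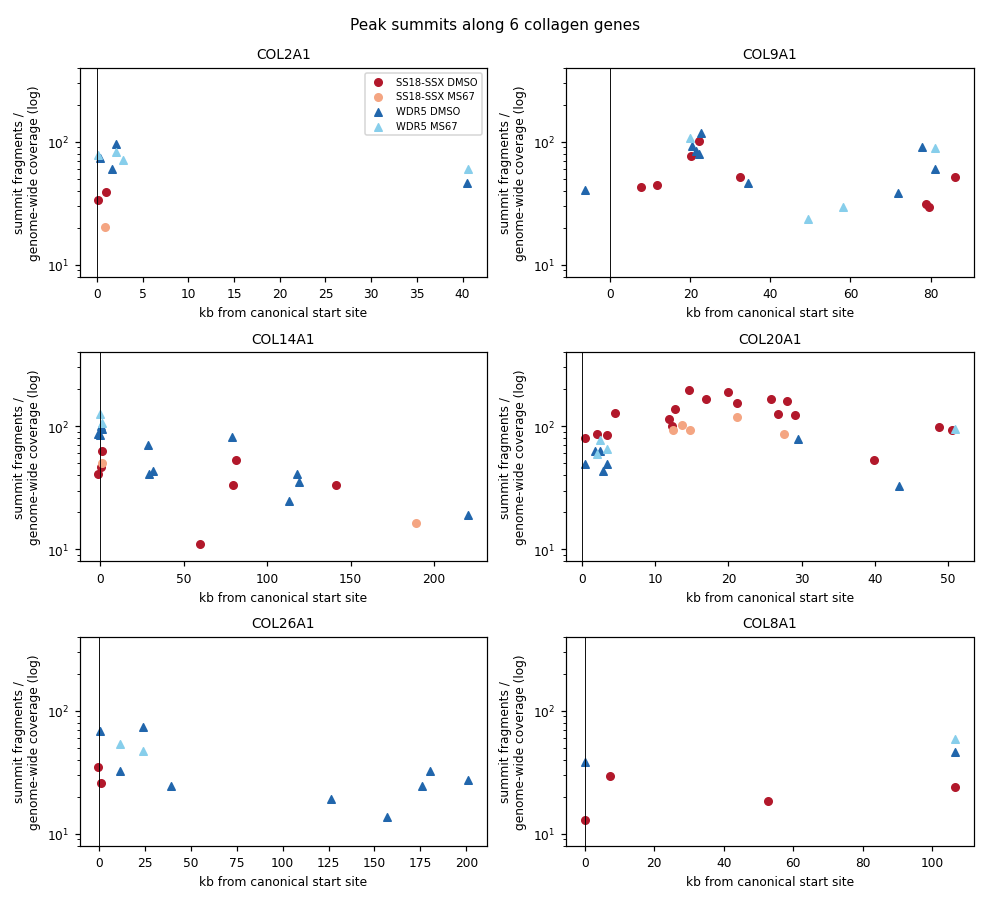
Summit fragments over genome-wide coverage (log axis) against distance from the canonical start site in kb for 6 collagen genes, with circles for SS18-SSX and triangles for WDR5, and with the lighter shade for MS67. SS18-SSX with MS67 remains at COL2A1, COL14A1, and COL20A1, and the COL9A1 peaks gather near 20 kb inside the gene.

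Among the transmembrane collagens, COL13A1, which encodes a chain found at cell adhesions and neuromuscular junctions, had 2 WDR5 promoter peaks with DMSO, of 28 (18.6 to 40.5) and 31 fragments. Both were kept with MS67, with 13 and 14 fragments, and at the coverage of each library the ratios were 1.01 (0.482 to 2.02) and 0.985 (0.484 to 1.91). SS18-SSX had 1 peak of 8 fragments there, in intron 2. COL25A1, which encodes the chain that gives the amyloid-associated CLAC protein, had 4 SS18-SSX peaks of 9 to 25 fragments, 94483 bp or more from its start, and 7 WDR5 peaks, all lost. The 4 WDR5 peaks of COL25A1 with MS67, of 3 to 9 fragments, overlapped no DMSO peak. COL23A1 had 4 WDR5 peaks of 6 to 8 fragments with DMSO and 2 with MS67, and COL17A1, the hemidesmosome collagen, had 1 promoter peak of 6 fragments with DMSO.

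Of the multiplexins, which are cleaved to give antiangiogenic fragments, COL18A1 had SS18-SSX and WDR5 peaks at the same place upstream of its start (chr21:45404375-45404627 for SS18-SSX, −664 bp), with 18 fragments (10.7 to 28.4) and 21 (13.0 to 32.1). A further pair overlapped in intron 2 near +827 bp, with 19 fragments each. None of the 4 SS18-SSX or 8 WDR5 peaks of COL18A1 was kept, and its WDR5 promoter peak with MS67, of 5 fragments, lay at another start site in intron 18. COL15A1 had an SS18-SSX peak of 10 fragments in intron 2 that overlapped a WDR5 peak of 14, and only the latter was listed with MS67 (6 fragments; ratio, 0.935; 0.294 to 2.59).

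COL7A1, the anchoring fibril collagen of skin, had no SS18-SSX peak. WDR5 had 4 peaks there, and 2 were kept, 1 in intron 2 (19 and 10 fragments) and 1 at the promoter of PFKFB4. COL26A1, which is classed apart from the main families, had an SS18-SSX promoter peak (chr7:101362228-101362841, −340 bp) of 19 fragments (11.4 to 29.7) with a fold of 7.60 and −log10 q of 10.1. A WDR5 peak of 1269 bp and 25 fragments (16.2 to 36.9) began 10 bp beyond its end and overlapped a further SS18-SSX peak of 14 fragments in intron 1. These 3 peaks were lost with MS67. The WDR5 peaks 11416 and 24096 bp inside the gene were kept, with 12 and 9 fragments at the first (ratio, 1.64; 0.609 to 4.23) and 27 and 8 at the next (0.646; 0.254 to 1.46). COL28A1, a von Willebrand factor A domain collagen of peripheral nerve, had SS18-SSX peaks of 12 and 15 fragments in introns 25 and 11, of which the first overlapped a WDR5 peak of 13 fragments found with MS67 only. Its WDR5 promoter peak of 8 fragments with DMSO was lost.

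Over all collagen genes, 72 of 79 SS18-SSX peaks were lost with MS67 (91.1%, 82.6 to 96.4, against 94.2% of the whole list), and 102 of 131 WDR5 peaks (77.9%, 69.8 to 84.6, against 75.0%). Both backgrounds lie inside the collagen intervals. Without COL20A1, the SS18-SSX share was 59 of 61 (96.7%, 88.7 to 99.6). If each lost summit had kept its height relative to coverage, 70 of the 72 SS18-SSX peaks (97.2%) would still have passed the smallest −log10 p in the MS67 list (5.04), as would 96.7% of all lost SS18-SSX peaks. For WDR5, whose MS67 library was shallower, this was 34 of 102 (33.3%), and 36.3% of all lost WDR5 peaks. The calculation takes only the coverage estimated from each list and no spike-in. At this depth it does not separate a lost WDR5 site from one too weakly covered to be called. The part of depth in the losses was not tested.

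The ratios that follow cover only peaks that also passed calling with MS67. Peaks that fell below the threshold have no ratio, and for WDR5 the MS67 library was 0.458 times as deep, so the ratios do not describe all collagen peaks. Neighboring DMSO peaks that overlapped the same MS67 peak share its summit, as at COL20A1 for SS18-SSX and COL13A1 for WDR5. The 7 kept SS18-SSX peaks of collagen genes had MS67 over DMSO ratios of 0.524 to 0.924 after scaling to coverage, with a median of 0.674 (0.705 over the 879 kept peaks of the list), and 3 of the 7 intervals lay below 1. The 29 kept WDR5 peaks had ratios of 0.513 to 1.82 and a median of 1.23 (1.27 over all 8897), and the interval lay below 1 for 1 and above 1 for 0 of them. This scaling uses the coverage estimated from each list and not the spike-in. The local background was not subtracted from the summits, so the ratios are not ratios of enrichment. Of the MS67 peaks, 1 of 8 for SS18-SSX (12.5%, 0.316 to 52.7, against 26.9%) and 17 of 46 for WDR5 (37.0%, 23.2 to 52.5, against 35.6%) overlapped no DMSO peak of the same target.

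**Figure D5:**
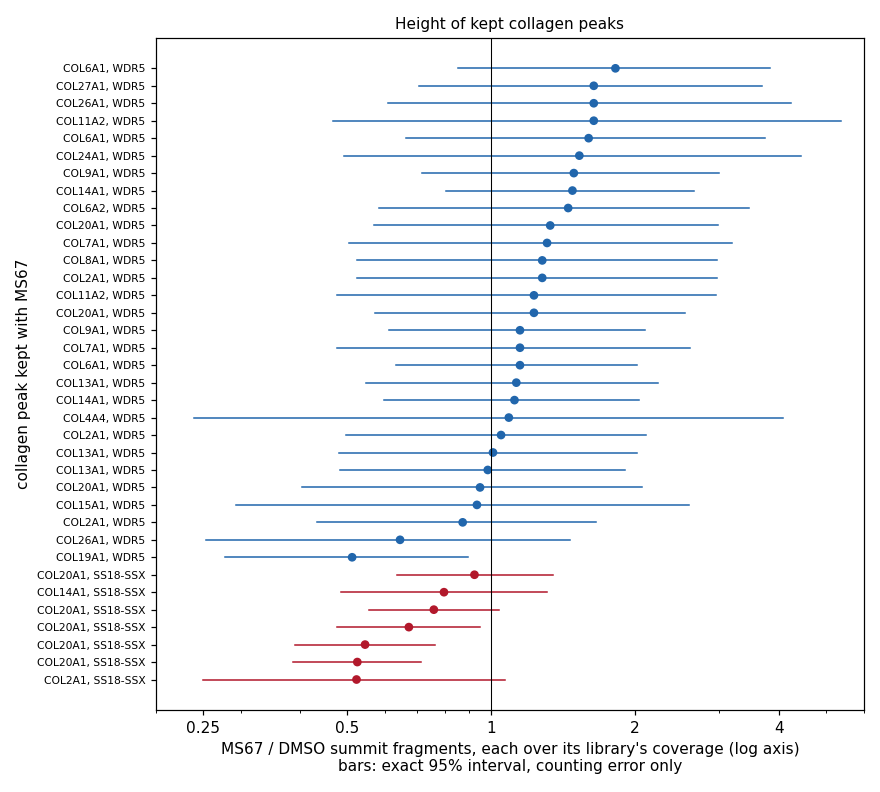
Ratio of summit fragments with MS67 to those with DMSO, each over the coverage of its library, for the collagen peaks found with both treatments (points, log axis) with exact 95% intervals for counting error. The 7 SS18-SSX peaks lie at 0.524 to 0.924, and the 29 WDR5 peaks lie on both sides of 1 with a median of 1.23.

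SS18-SSX and WDR5 met at 25 of the 79 collagen SS18-SSX peaks with DMSO (31.6%, 21.6 to 43.1, against 33.7% of all SS18-SSX peaks), and 25 of the 131 WDR5 peaks overlapped an SS18-SSX peak (19.1%, 12.7 to 26.9, against 13.9%). The overlap of SS18-SSX with WDR5 was 9.52% by the stricter standard (8.60% of all such peaks), 20.0% with −log10 q above 5 (20.9%), and 48.1% when a WDR5 peak within 1 kb sufficed (54.9%). Promoter peaks included, 58 of the 79 collagen SS18-SSX peaks were centred in an intron of the canonical transcript, 13 of them in intron 1, as were 83 of the 131 WDR5 peaks, 28 of them in intron 1. Counted as pairs of a peak and a gene window, the intronic share was 69.9% for SS18-SSX, against 40.3% over all protein-coding genes and 65.3% over those of 100 kb or more. For WDR5 it was 62.2%, against 39.0% and 60.0%. By class, WDR5 promoter peaks with DMSO were found at 6 of 11 fibrillar genes, 4 of 6 type IV genes, 7 of 10 FACIT genes, and 3 of 4 transmembrane genes. They were found at 1 of 3 short-chain, 1 of 5 beaded filament, 1 of 2 multiplexin, and 0 of 1 anchoring fibril genes, and at 1 of 2 others. Over all protein-coding genes the share was 43.0%. In the type IV count, a peak shared by paired genes counts for both. Of the 24 collagen genes with such a promoter peak, 10 had a WDR5 promoter peak with MS67 too. The matching share of all protein-coding genes was not computed. At 8 of the 10 (COL11A2, COL4A3, COL4A4, COL6A2, COL13A1, COL14A1, COL19A1, and COL20A1) the MS67 promoter peak overlapped a DMSO promoter peak. At COL9A1 and COL18A1 it lay at another start site, and their DMSO promoter peaks had no overlapping MS67 promoter peak. The MS67 promoter peak of COL9A1 did overlap a WDR5 DMSO peak centred outside the promoter window. COL2A1 had a WDR5 peak centred in the promoter with MS67 only, but it lay within a wider DMSO peak centred 353 bp inside the gene.

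Collagen chains are modified, folded, cleaved, cross-linked, and sensed by other proteins, and 46 such genes were examined in the same way. SS18-SSX with DMSO had a promoter peak at 7 (15.2%, against 13.4% of all genes), all of 7 to 13 fragments, and at 0 with MS67 (against 0.724%). These were COLGALT1 and COLGALT2, which glycosylate hydroxylysine, PLOD2, a lysyl hydroxylase, LOX, which cross-links fibrils, ADAMTS2 and TLL2, which cleave propeptides, and P4HB, a subunit of prolyl hydroxylase. The highest by −log10 q was that of COLGALT1, at 3.33 with 9 fragments, followed by LOX at 3.07 with 7. WDR5 had a promoter peak at 25 of the 46 with DMSO (54.3%, against 43.0%) and at 20 with MS67 (43.5%, against 27.7%). The SS18-SSX share was near that of all genes. None of the 7 collagen-degrading enzymes, MMP1, MMP2, MMP8, MMP9, MMP13, MMP14, and CTSK, had a promoter peak of either target. Over all genes, the promoter shares with DMSO were 13.4% for SS18-SSX and 43.0% for WDR5. In the enzymes' windows with DMSO, MMP9 had 5 SS18-SSX peaks, and 3 of the 7 enzymes had WDR5 peaks, with 7 such peaks at MMP14.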

How the data were processed

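Human synovial sarcoma cells (HSSY II) were profiled by CUT&RUN for SS18-SSX and WDR5 after DMSO or MS67, with 1 library each. Per the study's methods, Bowtie2 was used for alignment (hg38), Picard for duplicate removal, and MACS2 for calling peaks in each library. The processing notes also name SAMtools 1.9, bedtools 2.28.0, and deepTools 3.3.0. The deposited fold of each peak is a ratio to local background, and the deposited p-value and q-value are on the −log10 scale. The deposited score restates the q-value and was not used.

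Genes were those of GENCODE 44. Fragments at each summit, taken to be whole numbers, and the local background were solved from fold and −log10 p. The recomputed −log10 p lay within 0.001 of the deposited value for 100% of peaks. The step was tested on data simulated with the same formulas. Overlap meant at least 1 bp. Shares have exact Clopper-Pearson and counts exact Poisson intervals at 95%. Without replicates, no p-value was computed. Members, lists, and rules were chosen with earlier results of these data known, and the AACAAT motif was added after the sequences were seen. Full values went to collagen genes with a promoter peak, an SS18-SSX peak, or an MS67 peak. Related genes were named for an SS18-SSX promoter peak, and the list of degrading enzymes was named after its count of 0 was seen. Alternatives were stricter peaks, other overlaps, start sites, and gene windows. The spike-in signals and other assays were not analysed here. Software was matplotlib 3.10.9, pandas 2.3.3, scipy 1.17.1, and numpy 2.4.6 under Python 3.11.15.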

Additional observations from a re-analysis of the deposited data

How the results depend on the processing

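Of 46 recomputed values for the collagen counts and shares, 22 lay within 1.5 times the reported count or inside the 95% interval of the reported share, and 24 did not. No paired analysis was possible because each condition had 1 library and no test was made. With the stricter standard of the study (−log10 q above 3, with fold above 6 required of WDR5 and above 3 of SS18-SSX), genes with a peak were 0 for SS18-SSX with MS67, 11 for WDR5 with DMSO, and 6 with MS67. Promoter counts for WDR5 were 3 and 1, the SS18-SSX loss was 100%, the WDR5 loss 57.1%, and the overlap of SS18-SSX with WDR5 9.52%. With −log10 q above 5, genes with a peak were 10 for SS18-SSX with DMSO, 1 with MS67, and 7 for WDR5 with MS67. Promoter counts were then 4 for SS18-SSX and 13 and 2 for WDR5, the WDR5 loss 86.0%, and the overlap 20.0%. With canonical start sites alone, promoter counts were 3 for SS18-SSX with DMSO and 6 for WDR5 with MS67. Within 1 kb of a start site, SS18-SSX counts were 14 with DMSO and 2 with MS67. The WDR5 loss was 89.3% when 50% of a peak had to overlap and 69.5% when an MS67 peak within 1 kb sufficed, and the overlap of the targets was 48.1% within 1 kb. Leaving out COL20A1, an alternative chosen after seeing the data, gave an SS18-SSX loss of 96.7%. For the other peak standards and overlap rules, no loss over the whole list was computed, so these losses cannot be set against all peaks. The WDR5 loss of 57.1% rests on peaks at only 11 genes. Why the shares moved was not tested. Having 1 library per condition limits all of these values, and the shallow WDR5 library with MS67 limits those that use it.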

Other observations

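In the 300 bases around each canonical start site (250 upstream and 50 downstream, hg38), the 44 collagen genes had a median GC content of 66.7% against 63.7% over 20032 protein-coding genes, and a median ratio of observed to expected CpG of 0.635 against 0.775. The 30 collagen genes with a WDR5 peak within 1 kb of a start site with DMSO had a median CpG ratio of 0.705 (range, 0.0820 to 1.1), and the other 14 had 0.440 (0.164 to 0.877). The ranges overlap. The 7 genes with no peak in any list had a median GC content of 49.3% (39.7 to 67.0%) and a CpG ratio of 0.369 (0.164 to 0.714). The GC box GGGCGG was in the window of 28 of the 44 collagen genes (63.6%, against 61.3% of all), and in that of 1 of these 7. Across the 44 genes, which share the libraries, gene length and the number of SS18-SSX peaks with DMSO had a Pearson r of 0.033 and a Spearman rho of 0.089, and WDR5 with DMSO 0.14 and 0.024.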
